A study of Homo sapiens with 4 samples.

Results

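Histone genes were described in NUGC3 cells, an established stomach cancer line, with MYC knocked down and in wild-type NUGC3 cells. The members were the protein-coding Ensembl rows whose symbol begins with HIST1H to HIST4H, called replication-dependent here, and those whose symbol begins with H1F, H2AF or H3F, called variants. They numbered 87 of 20269 protein-coding rows, 71 of them replication-dependent and 16 variant. The replication-dependent members held 6 genes of the linker histone H1, 17 of H2A, 18 of H2B, 15 of H3 and 15 of H4. By symbol, 55 lay in the HIST1 cluster, 12 in HIST2, 3 in HIST3 and 1 in HIST4. The variants held 4 genes of H1, 9 of H2A and 3 of H3.

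The study had 2 libraries of cells with a MYC knockdown and 2 of wild-type cells, all from the same line. The sources used here do not give how MYC was knocked down, whether the knockdown cells are 1 clone, or whether RNA was selected for poly(A) tails. The labels do not tie the libraries of a group to separate cultures, so p-values reflect the spread among these samples alone, and that spread may be technical.

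The nucleosome wraps DNA around a core of H2A, H2B, H3 and H4, and H1 binds the linker DNA between cores. Replication-dependent histone genes lie in clusters, are transcribed mainly in S phase, and give mRNAs that mostly end in a conserved stem-loop in place of a poly(A) tail. Variant histone genes mostly lie elsewhere, are mostly transcribed through the cell cycle and give polyadenylated mRNA. They supply histones such as H2A.Z, macroH2A and H3.3 that are placed at particular sites. Some cluster genes also give longer polyadenylated transcripts that run past the stem-loop.

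The mRNA end sorted these genes in the annotation, and it bears on which of their RNAs a library can hold. The annotated transcripts of GENCODE 29 (GRCh38) were searched on the sense strand for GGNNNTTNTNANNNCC with 6 paired stem bases and a loop of 4 bases. This stem-loop stood in 31 of 71 replication-dependent members, and those 31 were among the 36 whose annotated 3′ UTR had at least 40 bases. Many other members have annotated transcripts that stop near the stop codon, so the search could not reach their ends. Among all 19684 coding genes searched, 60 held it (0.305%), of which 28 carried other names. Among the 16 variants only H2AFX held it.

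The windows below show the stem-loop in the members that the results turn on and whose annotation reaches it, 5′ to 3′ on the transcript strand, with the 16 stem-loop bases in capitals.
H2AFX: acaaaGGCCCTTTTAAGGGCCaccaccgcc
HIST3H2A: ataaaGGCTCTTTTCAGAGCCacctactat
HIST2H2BE: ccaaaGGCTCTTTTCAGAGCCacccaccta
HIST1H2AC: ccaaaGGCTCTTTTCAGAGCCcccctaccg
HIST1H2BH: ccaaaGGCTCTTTTCAGAGCCacttaatga
HIST1H2BD: ccaaaGGCTCTTTTAAGAGCCacgcatgtt
HIST1H4J: taaaaGGCCCTTTTCAGGGCCacccta
The H2AFX window lies at chr11:119094889-119094918 on the minus strand (GRCh38). The HIST3H2A window lies at chr1:228457360-228457389, and that of HIST2H2BE at chr1:149886179-149886208, both on the minus strand. The HIST1 windows are on chromosome 6, plus strand, at chr6:26124664-26124693 for HIST1H2AC, chr6:26252050-26252079 for HIST1H2BH, chr6:26158582-26158611 for HIST1H2BD and chr6:27824454-27824480 for HIST1H4J. The annotated transcript ran on for 1044 bases after the stem-loop in H2AFX, 390 in HIST3H2A and 1729 in HIST2H2BE. HIST1H4J stopped 6 bases after it. Members with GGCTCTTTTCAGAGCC numbered 17, the most frequent form, and H2AFX alone held GGCCCTTTTAAGGGCC.

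A poly(A) signal, AATAAA or ATTAAA in the last 50 transcript bases, stood in 22 of 71 replication-dependent members and in 13 of 16 variants, against 81.9% of coding genes. Of the replication-dependent members, 14 had the stem-loop and a transcript with a signal that ran past it, and H2AFX was the only variant with both. Values are FPKM, a read level scaled by transcript length and library total, so that genes can be set side by side.

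The replication-dependent class was low and wide, and the variant class was high. The median of the members' mean levels was 0.958 FPKM over the 71 replication-dependent genes and 45.9 FPKM over the 16 variants. Of the replication-dependent genes, 6 were listed at 0 in every library, 37 had a mean under 1 FPKM and 12 had a mean of at least 5 FPKM. Of the variants, 2 were listed at 0 in every library, 7 had a mean under 1 FPKM and the other 9 had at least 5 FPKM. Most replication-dependent mRNA lacks a poly(A) tail, and whether RNA was selected for tails is not given. The levels and sums of that class may thus miss part of its mRNA.

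Summed over all members, replication-dependent RNA came to 284 and 364 FPKM with MYC knocked down, against 264 and 265 FPKM in wild type. Variant RNA summed to 2116 and 1889 FPKM in knockdown, against 2001 and 1949 FPKM in wild type. For the replication-dependent sum both knockdown libraries lay above both wild-type libraries, by a wide step only in knockdown library 2, and for the variant sum the groups overlapped. In these bulk samples a different share of cells making histone mRNA and a different amount of it per cell cannot be told apart. The means were 324 ± 56.4 FPKM in knockdown and 264 ± 0.693 FPKM in wild type for the replication-dependent class. For the variants they were 2002 ± 161 FPKM in knockdown and 1975 ± 36.7 FPKM in wild type (SD, n = 2 each). The variant sum leaves out the pseudogene row H3F3AP4, which may hold H3F3A reads. That row averaged 236 FPKM in knockdown and 311 FPKM in wild type. Its step is larger than the 27.8 FPKM by which the variant mean is higher in knockdown. The order of the variant means thus depends on leaving it out, and the shares and ratios here use the sum without it. The replication-dependent sum made up 11.8% and 16.2% of the FPKM of both classes in the knockdown libraries, against 11.65% and 11.96% in wild type. This need not be its share of the histone mRNA in the cells, since mRNA without a poly(A) tail may be missed.

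The log2 ratio of the replication-dependent sum to the variant sum was -2.90 and -2.38 in knockdown and -2.92 and -2.88 in wild type, a difference of 0.27 (knockdown minus wild type). The difference was 0.53 without knockdown library 1 and 0.0053 without knockdown library 2, so it rests on 1 library. With 2 libraries a group, a permutation test of 1 value cannot reach p below 0.05, and none was run.

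**Figure D1:**
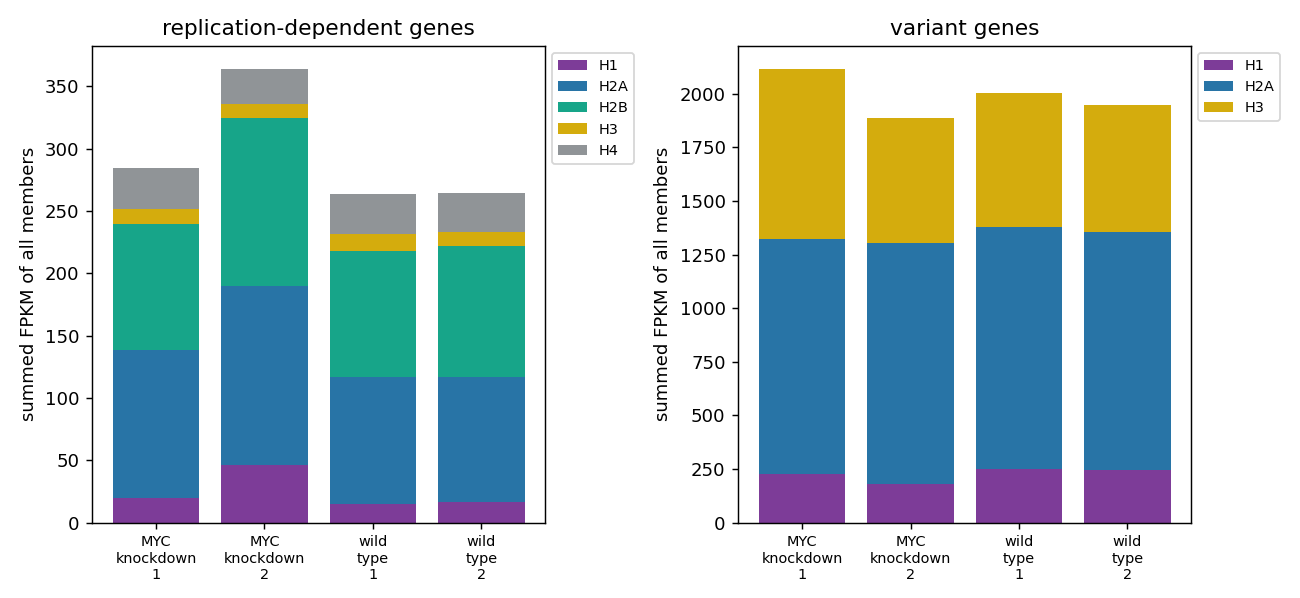
Summed FPKM of all replication-dependent members (left) and all variant members (right) in each library, stacked by histone type; the axes differ between panels. The replication-dependent sum is highest, at 364 FPKM, in MYC knockdown library 2, where the H1, H2A and H2B parts are also largest, and the variant sums lie between 1889 and 2116 FPKM.

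By type, the replication-dependent H1 sum was 19.8 and 46.3 FPKM in knockdown and 14.9 and 16.6 FPKM in wild type, nearly all of it HIST1H1C. The H2A sum was 118 and 144 FPKM in knockdown and 102 and 99.8 FPKM in wild type. The H2B sum was 101 and 134 FPKM in knockdown and 101 and 105 FPKM in wild type. H1 and H2A stood higher in both knockdown libraries, whereas H2B overlapped. The H3 sum was 11.9 and 11.2 FPKM in knockdown against 13.6 and 11.3 FPKM in wild type. The H4 sum was 33.1 and 28.7 FPKM in knockdown against 32.4 and 31.4 FPKM in wild type. Both H3 and H4 overlapped between the groups.

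A gene was tested where it had at least 1 FPKM in at least 2 libraries, which 36 replication-dependent and 9 variant members passed among 12953 genes. The test was limma on log2(FPKM + 1) with Benjamini-Hochberg adjustment over all 12953 genes, and each log2 change is the knockdown mean minus the wild-type mean after that transform. No gene passed an adjusted p of 0.05, and 25.9% of all genes had an unadjusted p under 0.05. That absence depends on the choices made: 310 genes passed 0.05 over genes of at least 5 FPKM, 293 with median-of-ratios scaling and 385 over protein-coding rows alone. A second threshold, an adjusted p of 0.10, was used knowing that none passed 0.05. It was passed by 10.4% of all genes, 5.5% higher and 4.91% lower in knockdown.

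At that threshold 2 of 36 replication-dependent members were higher in knockdown, HIST3H2A and HIST2H2BE, and 0 were lower. Of the 9 variants tested, 1 was higher, H2AFX, and 0 were lower. At an unadjusted p under 0.05, 3 replication-dependent members were higher and 3 lower, and 1 variant was higher and 2 lower. Beside the 10.4% and 25.9% of all genes, these counts are no result about either class. Of the 3 lower, HIST1H2AJ had 0.5 and 0.52 FPKM in knockdown against 1.04 and 1.77 FPKM in wild type. HIST1H3C had 0.83 and 0.54 FPKM in knockdown against 2.16 and 1.29 FPKM in wild type. Both passed the filter only through the wild-type libraries, where they were high, so their lower values carry no weight. Leaving out either wild-type library left 0 members past 0.10, because then 0 genes (without wild type 1) or 1 gene (without wild type 2) of 12953 passed.

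Both knockdown libraries lay above both wild-type libraries in 12 replication-dependent members and below them in 4, and the groups overlapped in 20. Those 4 include HIST1H2AJ and HIST1H3C, which passed the filter only through wild type. Over all genes tested, 33.4% did not overlap with knockdown higher and 25.2% with knockdown lower, 58.6% in all. Among the 9 variants tested, 3 lay higher, 5 lower and 1 overlapped. The median log2 change was 0.08 over the replication-dependent members tested and -0.09 over the variants tested, beside 0.04 over all genes. When all libraries were scaled to the same FPKM sum, the all-gene median was 0.12 and that of the variants 0.0012, so the sign of the variants' median depends on the scaling.

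**Figure D2:**
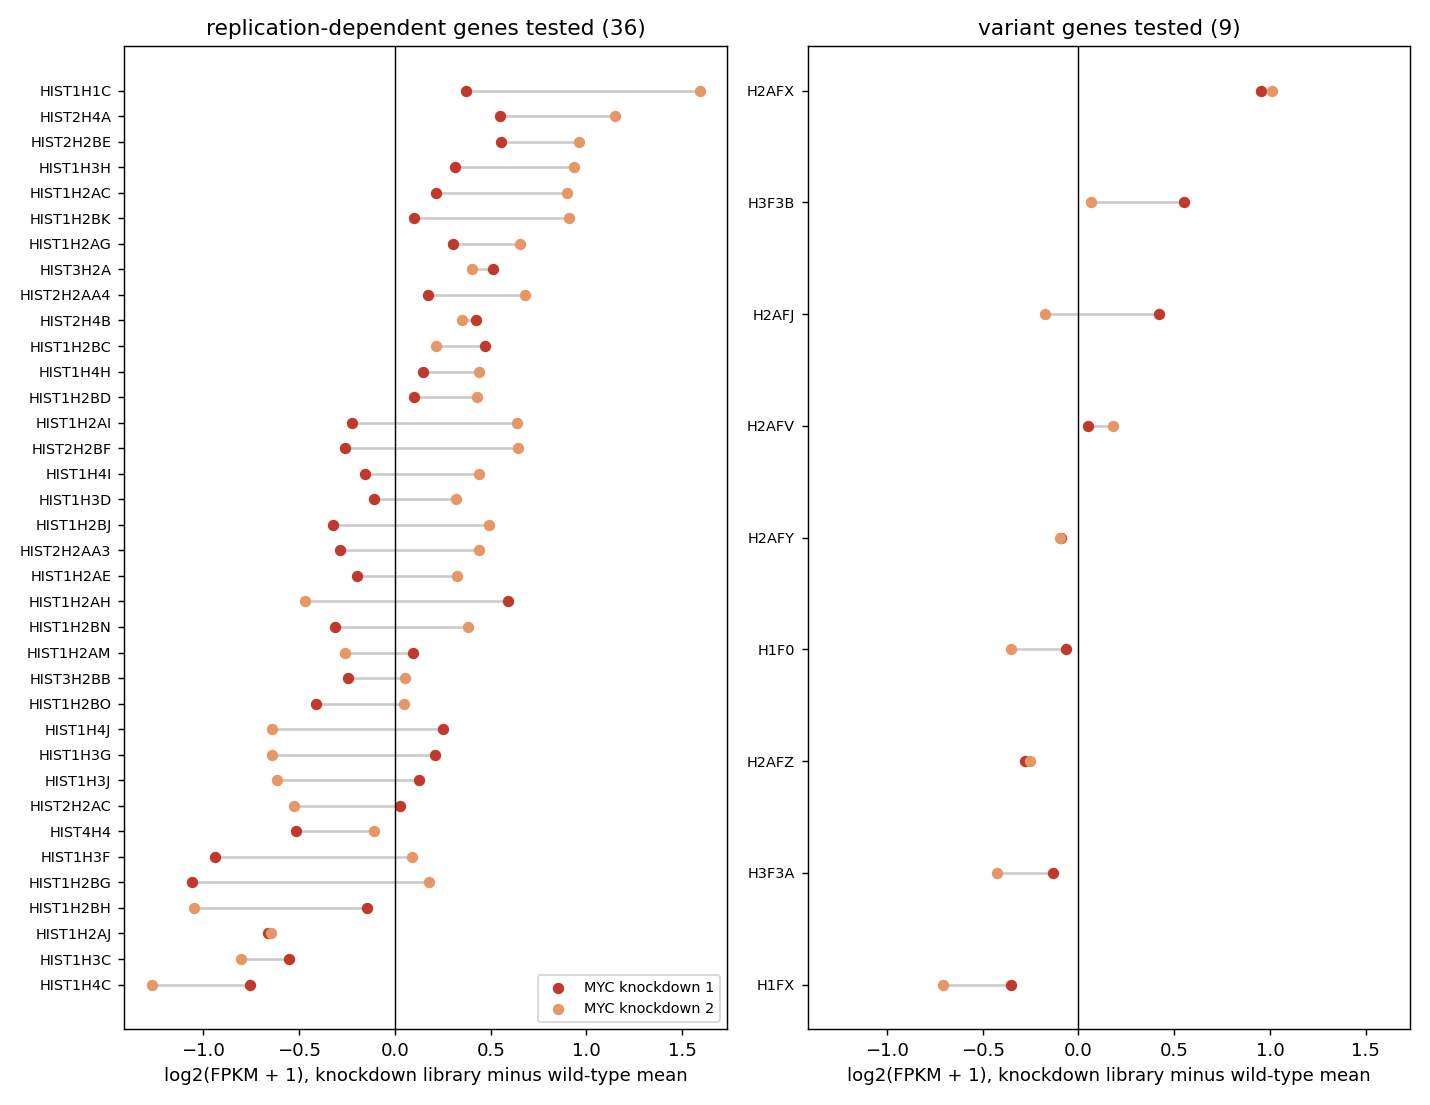
Difference of each MYC knockdown library from the wild-type mean, on the log2(FPKM + 1) scale, for the 36 replication-dependent (left) and 9 variant (right) members tested, ordered by their mean difference; a grey line joins the 2 knockdown libraries of a gene. H2AFX stands at about the same place in both libraries, and HIST1H1C, HIST1H2BG and HIST1H2BH have long lines.

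The 2 knockdown libraries differed more from each other than the 2 wild-type libraries did, in histone genes as in others. The median absolute log2 difference between knockdown libraries was 0.57 over the replication-dependent members tested, 0.29 over the variants tested and 0.20 over all genes. Between wild-type libraries it was 0.24, 0.03 and 0.08 in the same order. The median change of the replication-dependent members was 0.06 in knockdown library 1 and 0.34 in knockdown library 2. Knockdown library 2 was the higher of the pair in 24 of the 36.

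H2AFX encodes H2A.X, the variant whose phosphorylated form marks chromatin around DNA breaks. It stood at 134 and 140 FPKM in the knockdown libraries, against 69.0 and 68.7 FPKM in wild type. Both knockdown libraries lay far above both wild-type libraries, and the values within each group were close. H2AFX rose by 0.98 on the log2 scale (SE 0.07, limma, adjusted p = 0.0556 by Benjamini-Hochberg). Its share of the summed variant FPKM was 6.35% and 7.40% in knockdown against 3.45% and 3.53% in wild type. The gene (ENSG00000188486) is annotated at chr11:119093854-119095467 on the minus strand (GRCh38), and its longest coding transcript has 1 exon and a 3′ UTR of 1109 bases.

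HIST3H2A, an H2A gene of the small HIST3 cluster, stood at 38.0 and 35.2 FPKM in knockdown and 25.01 and 27.85 FPKM in wild type. HIST2H2BE, an H2B gene of the HIST2 cluster, stood at 9.59 and 13.1 FPKM in knockdown and 6.10 and 6.35 FPKM in wild type. The groups did not overlap in either gene. HIST3H2A rose by 0.46 (SE 0.10, adjusted p = 0.0884) and HIST2H2BE by 0.76 (SE 0.17, adjusted p = 0.0914) on the log2 scale, both by limma with Benjamini-Hochberg adjustment. With median-of-ratios scaling HIST2H2BE did not pass 0.10 (adjusted p = 0.105). HIST3H2A (ENSG00000181218) is annotated at chr1:228456979-228457873 and HIST2H2BE (ENSG00000184678) at chr1:149884459-149886652, each on the minus strand with 1 exon.

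MYC binds E-boxes such as CACGTG with MAX. The promoters of the 3 members that passed 0.10 are shown, picked by that threshold alone. They run from 250 bases before to 50 after the start (RefSeq, GRCh38.p14), 5′ to 3′ in the direction of transcription, with CCAAT and TATAAA on either strand (ATTGG and TTTATA on the other) in capitals.
H2AFX: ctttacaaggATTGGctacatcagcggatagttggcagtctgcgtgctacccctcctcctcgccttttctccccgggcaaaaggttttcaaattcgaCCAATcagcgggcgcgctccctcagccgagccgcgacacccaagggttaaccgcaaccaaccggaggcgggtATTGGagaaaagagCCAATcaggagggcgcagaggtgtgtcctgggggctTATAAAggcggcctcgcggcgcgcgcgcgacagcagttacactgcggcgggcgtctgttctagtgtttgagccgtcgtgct
HIST3H2A: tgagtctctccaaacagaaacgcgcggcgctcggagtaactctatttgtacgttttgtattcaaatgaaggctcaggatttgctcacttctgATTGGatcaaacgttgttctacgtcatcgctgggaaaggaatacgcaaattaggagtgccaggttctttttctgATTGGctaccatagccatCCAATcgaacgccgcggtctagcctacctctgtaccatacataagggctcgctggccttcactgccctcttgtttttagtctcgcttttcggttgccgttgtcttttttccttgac
HIST2H2BE: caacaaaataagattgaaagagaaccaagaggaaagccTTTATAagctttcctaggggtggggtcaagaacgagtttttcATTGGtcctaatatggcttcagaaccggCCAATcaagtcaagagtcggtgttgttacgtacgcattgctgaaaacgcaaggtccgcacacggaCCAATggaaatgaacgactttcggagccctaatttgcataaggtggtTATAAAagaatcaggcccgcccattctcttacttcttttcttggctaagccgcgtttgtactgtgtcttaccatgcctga
The H2AFX promoter is chr11:119095416-119095715, that of HIST3H2A chr1:228457824-228458123 and that of HIST2H2BE chr1:149886633-149886932, all on the minus strand. H2AFX holds 4 CCAAT matches and 1 TATAAA match, HIST3H2A 3 CCAAT matches and no TATAAA, and HIST2H2BE 3 CCAAT matches and 2 TATAAA matches. CACGTG, the E-box read the same on both strands, is in none of them. RefSeq promoters were matched for 75 of 87 members. CACGTG stood in 0 of 61 replication-dependent and 0 of 14 variant promoters, against 7.4% of all 27305 promoters. CCAAT stood in 83.6% of the replication-dependent and 78.6% of the variant promoters, against 35.7% of all. TATAAA stood in 67.2% of the replication-dependent and 28.6% of the variant promoters, against 3264 of all 27305. TTTATAAA would match TATAAA on both strands. A match describes the letters in this window and is not a binding site. Other E-box forms and bases outside the window were not searched, and binding by MYC was not tested.

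Among the other H2A variants, H2AFZ and H2AFV encode the forms of H2A.Z, which marks promoters and regulatory elements. H2AFZ stood at 465 and 474 FPKM in knockdown against 565 and 564 FPKM in wild type, lower in both knockdown libraries. Its log2 change was -0.27 (SE 0.07, limma, adjusted p = 0.103), which did not pass 0.10. It passed over genes of at least 5 FPKM (adjusted p = 0.0909), with median-of-ratios scaling (0.0903) and over protein-coding rows alone (0.0906). H2AFV had 298 and 326 FPKM in knockdown against 292 and 282 FPKM in wild type, higher in both knockdown libraries. Its log2 change was 0.12, within the step between the knockdown libraries (limma, adjusted p = 0.406).

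H2AFY, which encodes macroH2A1, a variant with a large extra domain, had 154 and 153 FPKM in knockdown against 165 and 163 FPKM in wild type. Its log2 change was -0.09 (limma, adjusted p = 0.426) and became 0.0012 with equal FPKM sums. H2AFJ, which encodes H2A.J, had 44.6 and 29.2 FPKM in knockdown against 35.1 and 31.2 FPKM in wild type, the only variant tested whose groups overlapped. H2AFY2 and the H2AFB genes, H2A.B forms known from testis, had means of at most 0.355 FPKM, and H2AFB2 and H2AFB3 had identical values. Those 2 genes are near-identical copies, so their single values are uncertain.

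Both H1 variants tested had lower values in knockdown without passing the threshold. H1FX, which encodes the linker histone H1X, had 52.3 and 40.7 FPKM in knockdown against 66.5 and 67.5 FPKM in wild type, with a log2 change of -0.53 (SE 0.14, limma, adjusted p = 0.111). It passed 0.10 over genes of at least 5 FPKM (adjusted p = 0.0976), with median-of-ratios scaling (0.0768) and over protein-coding rows alone (0.0953). H1F0, which encodes H1.0, a linker histone of resting and differentiated cells, had 173 and 141 FPKM in knockdown against 183 and 179 FPKM in wild type, with a log2 change of -0.21 (limma, adjusted p = 0.321). Both knockdown libraries lay below both wild-type libraries in each gene. H1FNT and H1FOO, germ cell H1 genes, were listed at 0. An antisense gene, H1FX-AS1, overlaps H1FX and had at most 0.61 FPKM.

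H3F3A and H3F3B encode the same protein, H3.3, which is placed outside replication. H3F3B had 635 and 454 FPKM in knockdown against 438 and 429 FPKM in wild type. Knockdown library 1 stood far above the rest and knockdown library 2 just above wild type, and the log2 change was 0.31 (SE 0.17, limma, adjusted p = 0.322). H3F3A had 159 and 130 FPKM in knockdown against 186 and 163 FPKM in wild type, with a log2 change of -0.28 (limma, adjusted p = 0.268). The pseudogene row H3F3AP4 had 251 and 221 FPKM in knockdown against 291 and 332 FPKM in wild type. Reads may be split between the gene and its copy, so H3F3A alone is uncertain, and the 2 rows together gave 381 ± 41.6 FPKM in knockdown and 486 ± 12.8 FPKM in wild type (SD, n = 2 each). H2AFZ and H3F3B together held 50.5% of the summed variant FPKM in both groups, where the H3F3AP4 row is not counted.

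**Figure D3:**
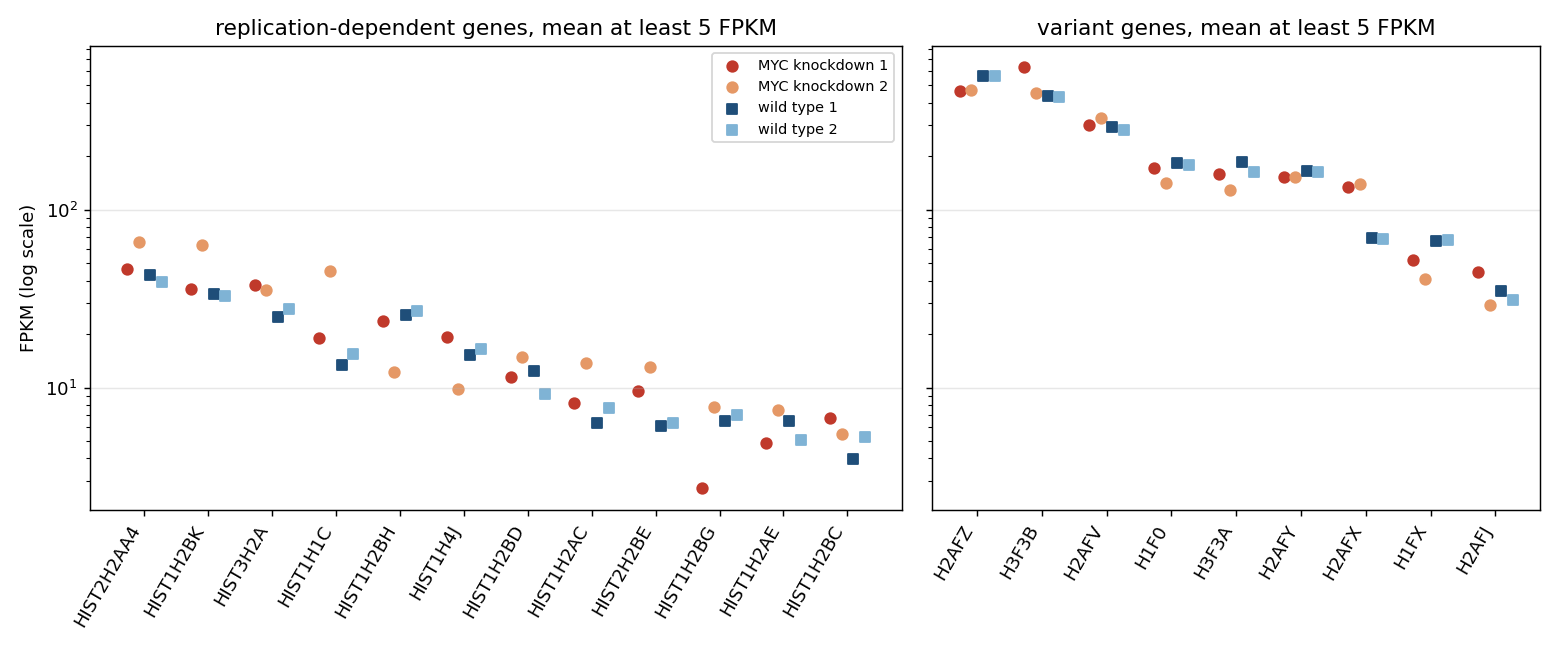
FPKM on a log scale in each library for the 12 replication-dependent (left) and 9 variant (right) members with a mean of at least 5 FPKM, from the highest mean to the lowest. The MYC knockdown circles of H2AFX, at 134 and 140 FPKM, sit above its wild-type squares at 69.0 and 68.7 FPKM, and those of HIST1H1C are far apart, at 19.0 and 45.5 FPKM.

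A few genes carried most of the replication-dependent RNA. The 8 with the highest means held 71.0% and 71.7% of the class sum in the knockdown libraries, against 66.3% and 66.5% in the wild-type libraries. Those 8 summed to 202 and 261 FPKM in knockdown and 175 and 176 FPKM in wild type, and the other members to 82.4 and 103 FPKM in knockdown and 88.8 and 88.7 FPKM in wild type. Most of the step between groups lay in the highest 8, where both knockdown libraries stood above wild type. Of the 12 members with a mean of at least 5 FPKM, 7 lay higher in both knockdown libraries, 1 lower and 4 overlapped, beside 33.4% higher and 25.2% lower over all genes. Those shares are over all 12953 genes tested, without the cut at 5 FPKM. HIST1H2BC, 1 of the 7, passed the cut only through knockdown, with means of 6.09 FPKM in knockdown and 4.61 FPKM in wild type. Its higher values thus carry no weight.

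HIST2H2AA4, an H2A gene of the HIST2 cluster, had 46.4 and 66.2 FPKM in knockdown against 42.9 and 39.2 FPKM in wild type, higher in both knockdown libraries. Its log2 change was 0.43 (limma, adjusted p = 0.235). Its twin HIST2H2AA3 had 3.29 and 6.11 FPKM in knockdown against 4.05 and 4.43 FPKM in wild type. The 2 genes are near-identical copies, and the identifier given for HIST2H2AA4 carries the other name in GENCODE 29, so only their sum is secure, at 60.99 ± 15.97 FPKM in knockdown and 45.3 ± 2.33 FPKM in wild type (SD, n = 2 each).

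HIST1H1C encodes H1.2, the linker histone with the most RNA in this class. It had 19.0 and 45.5 FPKM in knockdown against 13.5 and 15.5 FPKM in wild type. Both knockdown libraries lay above wild type, and knockdown library 2 stood well above the other 3 libraries. Its log2 change was 0.98 (SE 0.42, limma, adjusted p = 0.226), 1.59 without knockdown library 1 and 0.37 without knockdown library 2. The other H1 genes of the cluster, among them HIST1H1E at 0.552 FPKM over the 4 libraries, were not tested.

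HIST1H2BK, an H2B gene, had 35.8 and 63.5 FPKM in knockdown against 33.8 and 32.9 FPKM in wild type. HIST1H2AC, an H2A gene, had 8.24 and 13.8 FPKM in knockdown against 6.31 and 7.66 FPKM in wild type. HIST1H2BD, another H2B gene, had 11.5 and 14.8 FPKM in knockdown against 12.5 and 9.21 FPKM in wild type. HIST1H2BK and HIST1H2AC lay higher in both knockdown libraries, most of all in knockdown library 2, and HIST1H2BD overlapped. Their log2 changes were 0.51, 0.56 and 0.26, with limma adjusted p of 0.318, 0.257 and 0.442 in the order HIST1H2BK, HIST1H2AC and HIST1H2BD.

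HIST1H2BH, an H2B gene, ran the other way in knockdown library 2, with 23.8 and 12.2 FPKM in knockdown against 25.7 and 27.1 FPKM in wild type. HIST1H4J, an H4 gene, had 19.2 and 9.86 FPKM in knockdown against 15.3 and 16.6 FPKM in wild type. In both genes knockdown library 2 was the lowest of the 4, and in HIST1H4J knockdown library 1 was the highest. The log2 changes were -0.60 for HIST1H2BH and -0.20 for HIST1H4J (limma, adjusted p = 0.298 and 0.730).

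HIST1H4C, an H4 gene, had 1.47 and 0.73 FPKM in knockdown against 3.65 and 2.75 FPKM in wild type, lower in both knockdown libraries, with a log2 change of -1.01 (SE 0.25, limma, adjusted p = 0.103). HIST2H4A had 4.71 and 7.65 FPKM in knockdown against 2.38 and 3.51 FPKM in wild type, higher in both, with a log2 change of 0.85 (limma, adjusted p = 0.147). With its near-identical copy HIST2H4B it summed to 8.995 ± 1.94 FPKM in knockdown and 4.91 ± 0.0424 FPKM in wild type (SD, n = 2 each). Both genes overlap an H3 gene on the other strand, and the sources used here do not say whether counting used strand. HIST4H4, the only member of its cluster, had 0.53 and 1.03 FPKM in knockdown against 0.89 and 1.54 FPKM in wild type, and the groups overlapped. These genes were named after their values were seen.

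By cluster, 7 of the 26 HIST1 members tested lay higher in both knockdown libraries, 4 lower and 15 overlapped, with a median log2 change of 0.06. Those 4 include HIST1H2AJ and HIST1H3C, which passed the filter only through wild type. Of the 7 HIST2 members tested, 4 lay higher, 0 lower and 3 overlapped, with a median of 0.39. Over all genes 33.4% did not overlap with knockdown higher and 25.2% with knockdown lower. In either direction it was 58.6%, about the share of these 7 that did not overlap. Twins make up several of those 7 genes, so they are not separate measurements. By type, the median log2 change was 0.08 over 11 H2A genes, 0.08 over 11 H2B genes, -0.23 over 6 H3 genes and 0.14 over 7 H4 genes.

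Many H2A and H2B genes stand head to head and share the DNA between their starts. The annotation held 14 pairs of members that start within 1 kb of each other on opposite strands, whichever way they face, and both genes were tested in 8. The annotated starts of HIST2H2AB and HIST2H2AC, and of HIST1H2AK and HIST1H2BN, face each other. Those pairs, not among the 8, do not stand head to head in the models. HIST1H2BO stands in more than 1 of the 8, with HIST1H2AM and with the H3 gene HIST1H3J, each with the same sign. HIST1H2AM and HIST1H3J overlap on the same strand and may share reads, so their pairs with HIST1H2BO are not separate measurements. The log2 changes had the same sign in 5 of the 8. HIST2H2BE had a log2 change of 0.76, and HIST2H2AC across the shared promoter had -0.25. HIST3H2A had 0.46 and its partner HIST3H2BB -0.09. HIST1H2BK had 0.51 and HIST1H2AH 0.06, whereas HIST1H2AC and HIST1H2BC had 0.56 and 0.34. The differences within pairs were not tested.

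Levels are also given by the annotated mRNA end. The 22 replication-dependent members with a poly(A) signal in an annotated transcript had a median mean level of 2.41 FPKM, and 8 of them had at least 5 FPKM. The 49 without one had a median of 0.518 FPKM, and 4 of them had at least 5 FPKM. HIST1H2BK and HIST1H1C, at 41.5 and 23.4 FPKM over the 4 libraries, are among those 49, and the annotation gives both a 3′ UTR of 0 bases. Of the 49, 35 have an annotated 3′ UTR under 40 bases or none, where the models leave little or no end to search. The 22 in turn include HIST1H4J, whose transcript stops 6 bases after the stem-loop, so its match lies before the stem-loop. The 2 sets thus do not separate genes with and without polyadenylated mRNA.

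**Figure D4:**
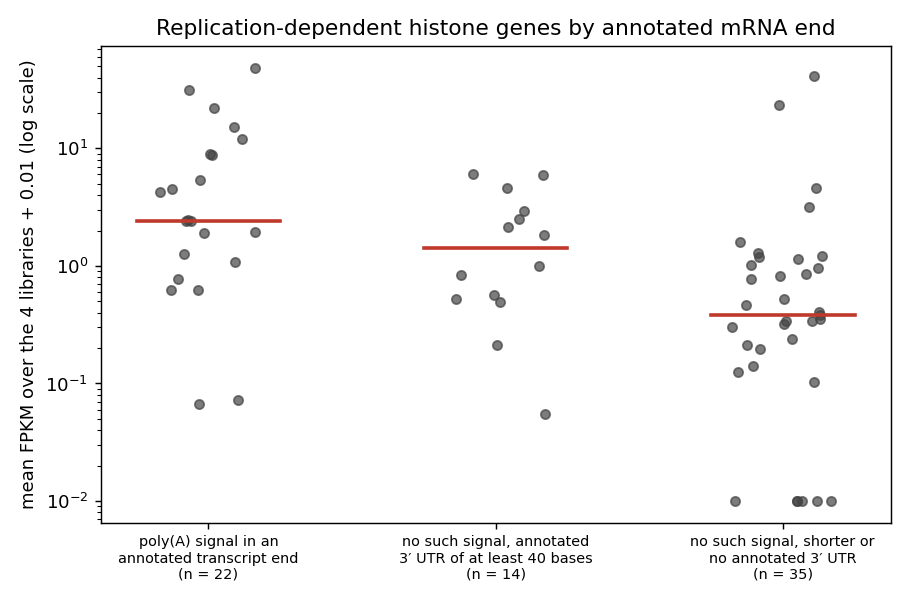
Mean FPKM over the 4 libraries, on a log scale after adding 0.01, of the 71 replication-dependent members by what the annotation holds at the mRNA end; each point is a gene and red lines are medians. The medians are 2.41 FPKM with a poly(A) signal, 1.41 FPKM without a signal but with a 3′ UTR of at least 40 bases, and 0.375 FPKM with a shorter 3′ UTR or none.

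HIST1H1C, HIST1H2AC, HIST1H2BD, HIST1H2BK and HIST2H2BE are known also to give polyadenylated mRNA. These 5 summed to 84.1 and 151 FPKM in knockdown and 72.1 and 71.6 FPKM in wild type, and the other 66 to 200.1 and 213 FPKM in knockdown and 192 and 193 FPKM in wild type. Both sums were higher in the knockdown libraries, and the 5 genes held most of the step in knockdown library 2. Without them the difference in the log2 ratio of the classes was 0.09.

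All 3 members past 0.10 were among the 15 that have a stem-loop and an annotated transcript with a poly(A) signal past it. Of the 10 tested among these 15, 7 lay higher in both knockdown libraries, 1 lower and 2 overlapped, beside 33.4% higher and 25.2% lower over all genes, and their median log2 change was 0.42. The 19 replication-dependent members tested that have no annotated poly(A) signal had a median of -0.09, with 3 higher, 3 lower and 13 overlapping. Those lower include HIST1H2AJ and HIST1H3C, which passed the filter only through wild type. The grouping was made with values known, and the first set holds the 3 members past 0.10, so these counts support nothing and were not tested.

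Of the RNAs without a poly(A) tail other than histone mRNA, 10 were tested. At the 0.10 threshold 2 were lower and 0 higher, beside 4.91% lower over all genes, 7 lay lower in both knockdown libraries, beside 25.2% over all genes, and 3 overlapped. The median log2 change of the 10 was -1.26. Those lower include RN7SL1, RN7SL2 and RN7SL3, genes of the same RNA that may share reads, so they are not separate measurements. They also include SCARNA10, which passed the filter only through wild type. The count and the median hold these genes, and whether the fall is shared was not tested. RN7SL2, an RNA of the signal recognition particle, fell to 1513 and 1698 FPKM in knockdown, against 3203 and 4181 FPKM in wild type (limma, adjusted p = 0.0566). RN7SL2 was named after its values were seen. RN7SK, which holds the elongation factor P-TEFb inactive, fell to 1.67 and 0.85 FPKM in knockdown, against 12.3 and 4.77 FPKM in wild type (limma, adjusted p = 0.0938), and did not pass without knockdown library 2 (adjusted p = 0.104). RMRP had 5.31 and 2.74 FPKM in knockdown against 16.5 and 7.71 FPKM in wild type, and RPPH1, the RNA of RNase P, had 0 and 1.65 FPKM in knockdown against 3.85 and 6.07 FPKM in wild type. MALAT1, which also lacks a poly(A) tail, had 106 and 131 FPKM in knockdown against 104 and 117 FPKM in wild type, and overlapped. Their part in the histone values was not tested.

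The factors that transcribe, cut and guard replication-dependent histone mRNA were all tested and 0 of 18 passed 0.10. At an unadjusted p under 0.05, 1 was lower, beside 25.9% of all genes in either direction. Without overlap, 1 lay higher and 9 lower, beside 33.4% and 25.2% of all genes, and the median log2 change was -0.07. SLBP, which binds the stem-loop, had 60.8 and 55.4 FPKM in knockdown against 66.9 and 65.5 FPKM in wild type (limma, adjusted p = 0.246). ZNF473, a zinc finger protein of the U7 complex that directs the cut, had 5.89 and 5.83 FPKM in knockdown against 8.07 and 8.05 FPKM in wild type (log2 change -0.40, adjusted p = 0.112). CPSF3, the nuclease that makes the cut, had 57.7 and 50.6 FPKM in knockdown against 58.1 and 58.6 FPKM in wild type. All 3 lay lower in both knockdown libraries, and the step of CPSF3 was smaller than the gap between its knockdown libraries.

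Among 16 chaperones of newly made histones, 2 were lower past 0.10 and 0 higher, beside 4.91% and 5.5% of all genes, and the median log2 change was -0.08. SSRP1, a subunit of FACT, which handles H2A-H2B at forks and transcribed genes, fell to 118 and 119 FPKM in knockdown, against 157 and 159 FPKM in wild type (log2 change -0.41, SE 0.07, limma, adjusted p = 0.0629). IPO4, an importin of H3 and H4, fell to 13.7 and 15.3 FPKM in knockdown, against 19.6 and 22.3 FPKM in wild type (log2 change -0.50, SE 0.11, limma, adjusted p = 0.0939). The groups did not overlap in either gene, and with equal FPKM sums IPO4 did not pass (limma, adjusted p = 0.120). NAP1L1, an H2A-H2B chaperone, had 346 and 299 FPKM in knockdown against 397 and 385 FPKM in wild type (limma, adjusted p = 0.166). NASP, which binds H3, H4 and H1, had 191 and 146 FPKM in knockdown against 177 and 164 FPKM in wild type, and overlapped.

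Among 13 chaperones of variants, 1 was lower past 0.10 and 0 higher, beside the same 4.91% and 5.5%, and the median log2 change was -0.07. ANP32E, which removes H2A.Z from chromatin, fell to 47.9 and 49.5 FPKM in knockdown, against 80.5 and 77.7 FPKM in wild type (log2 change -0.69, SE 0.07, limma, adjusted p = 0.0556). DAXX, which deposits H3.3, had 32.4 and 32.5 FPKM in knockdown against 41.3 and 38.7 FPKM in wild type (limma, adjusted p = 0.122). DEK, a chromatin protein with H3.3 chaperone activity, had 204 and 211 FPKM in knockdown against 230 and 226 FPKM in wild type (limma, adjusted p = 0.285). All 3 lay lower in both knockdown libraries. CENPA, the centromeric H3 variant whose symbol lies outside the rule, had 34.8 and 28.9 FPKM in knockdown against 36.2 and 39.1 FPKM in wild type (limma, adjusted p = 0.287).

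Of 48 DNA replication genes, listed because replication-dependent histone mRNA is made in S phase, 1 was lower past 0.10 and 0 higher, fewer than the 4.91% and 5.5% of all genes. TIPIN, a fork protection factor, fell to 17.96 and 17.1 FPKM in knockdown, against 22.7 and 26.04 FPKM in wild type (log2 change -0.45, limma, adjusted p = 0.0971), and with equal FPKM sums it did not pass (adjusted p = 0.111). The median log2 change was -0.09, with 4 genes higher in both knockdown libraries, 20 lower and 24 overlapping, beside 33.4% higher and 25.2% lower over all genes. PCNA, the sliding clamp, had 339 and 306 FPKM in knockdown against 327 and 321 FPKM in wild type, and overlapped. RRM2, which makes deoxynucleotides, had 215 and 251 FPKM in knockdown against 255 and 271 FPKM in wild type, and RFC4, a clamp loader subunit, had 45.9 and 41.4 FPKM in knockdown against 53.8 and 56.5 FPKM in wild type (limma, adjusted p = 0.341 and 0.117).

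MYC had 64.98 and 75.8 FPKM in knockdown, against 82.9 and 82.01 FPKM in wild type, lower in both, with a log2 change of -0.23 (SE 0.10, limma, adjusted p = 0.237). Of the markers of other cell types, the fibroblast genes COL1A2 and COL3A1, the endothelial gene VWF and the leukocyte gene PTPRC were listed at 0, and the 8 epithelial markers summed to between 6211 and 7311 FPKM per library. The fibroblast list summed to 8.14 and 2.98 FPKM in knockdown against 6.57 and 5.76 FPKM in wild type, and the leukocyte list, nearly all CD68, to 21.7 and 22.4 FPKM in knockdown against 12.4 and 17.3 FPKM in wild type.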

How the data were processed

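The data are RNA values of 4 NUGC3 libraries, 2 with a MYC knockdown and 2 wild type, grouped by sample title. STAR and RSEM are named in the submitters' processing notes, but the sources used here state neither their versions nor the build or annotation. The deposited values are FPKM per gene made by the authors, a unit inferred from column sums that are not 1 fixed total (674328 to 739335). TPM with rows left out is not excluded. Fragment counts were not recovered, so the depth behind each value is unknown and no counting interval is given. The IDs come from an older annotation: 48 of 87 members were matched to GENCODE 29 by ID and 39 by symbol.

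The 12953 Ensembl rows that reached 1 FPKM in 2 or more libraries entered limma 3.58.1 (R 4.3.3; lmFit, then eBayes with trend) as log2(FPKM + 1), after a test on simulated data, with Benjamini-Hochberg adjustment and thresholds of 0.05 and 0.10. That scale understates changes of low genes. Promoters came from RefSeq. The members, lists and tests were chosen with earlier results of these data known. Named were MYC, the 8 highest replication-dependent members, variants with a mean of at least 5 FPKM, the 5 smallest p in each class at that level, members past a threshold, the 2 smallest p and 2 highest means of each list of factors, and 4 RNAs without a poly(A) tail. Others are said to be chosen after their values were seen, or stand in counts and pairs. Alternatives were the pseudocount, filters, scaling, a replicate block, protein-coding rows alone and leaving out each library. Histone pseudogenes (30 rows) and 1 antisense row were left out of the classes.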

Additional observations from a re-analysis of the deposited data

Results flagged for a closer look

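HIST2H2BD, a histone pseudogene row outside both classes, held signal although it is not listed as coding. It had 3.56 and 2.93 FPKM in the MYC knockdown libraries, against 1.38 and 2.18 FPKM in wild type. The knockdown mean was 3.25 FPKM and the wild-type mean 1.78 FPKM. The row was picked because both knockdown libraries lay above both wild-type libraries, among left-out histone rows averaging at least 1 FPKM. That order was thus the rule for picking it and is no result. Over all genes tested 33.4% did not overlap with knockdown higher. Whether reads of near-identical H2B genes of the HIST2 cluster are placed on it was not tested.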

How the results depend on the processing

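The median log2 change of the replication-dependent members, 0.08, was 0.38 over the 12 of at least 5 FPKM, where HIST1H2BC passed only through knockdown. It was 0.0602 to 0.338 when 1 library was left out. The median log2 change of the variants, -0.09, reversed to 0.0135 with no filter and to 0.0012 with equal FPKM sums. It was -0.177 to -0.0660 when 1 library was left out. The count of replication-dependent members past 0.10, 2, was 13 with no filter, 0 at an adjusted p of 0.05 and 0 to 15 when 1 library was left out. Over all genes 3001 of 53777 passed 0.10 with no filter, 5304 of 12953 without knockdown library 1, 5359 without knockdown library 2, and 0 and 1 without wild-type library 1 and 2, so the member counts follow the totals. Leaving out a library leaves 1 sample in its group, which is assumed to vary like the other group. The count of variants, 1, was 4 with no filter, 3 over genes of at least 5 FPKM, 3 with median-of-ratios scaling, 3 over protein-coding rows alone (each time H2AFX, H1FX and H2AFZ), 0 at 0.05 and 0 to 6 when 1 library was left out. With no filter most genes are at or near 0 and limma's variance estimate is unreliable. With 1 library left out, log2 changes that changed sign ran from -0.177 to 0.419 for H2AFJ, -0.642 to 0.250 for HIST1H4J, -0.0569 to 0.254 for MALAT1, -0.221 to 0.164 for NASP and -0.0819 to 0.0624 for PCNA. With equal FPKM sums H2AFY was 0.0012, NASP 0.0669 and PCNA 0.0857. Beyond what the construction shows (fewer genes or libraries), the cause was not tested. Samples with the same number did not deviate together (r = -0.0059 over 12953 genes), so the numbers give no pairing; with the replicate block 723 genes passed 0.10 against 1349, the class medians stayed at 0.08 and -0.09, and the 3 members were H2AFX, HIST1H4C and HIST2H4A. The difference in the log2 ratio of the classes was 0.27, from 0.0053 to 0.53 when 1 library was left out and 0.32 without H2AFX, an alternative added after seeing the data.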
